A study of Homo sapiens with 9 samples.

Results

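The plasminogen activators, a serpin that inhibits them, and membrane-type matrix metalloproteinases with their tissue inhibitors were followed as a set of 9 genes, PLAU, PLAUR, PLAT, SERPINE2, MMP14, MMP15, TIMP1, TIMP2 and TIMP3, in PANC-1, a human cell line from a pancreatic duct carcinoma. Members were found by matching their symbols to the Entrez numbers of the deposited table of CPM (the reads of a gene scaled to library size), and 8 of the 9 matched a row among 16750 genes. TIMP3 matched no row and is not analysed here. The filter for low values, 3 or more libraries with a CPM of 1 or above, left 14554 genes in all and kept each of the 8. PANC-1 cells had been transduced with lentivirus that carried the empty plasmid pLV-EV (vector), pLV-SLC22A10 (SLC22A10_OE) or pLV-SLC22A15 (SLC22A15_OE), and 3 RNA-seq libraries were made from each group. The transgenes encode 2 members of the SLC22 family of membrane transporters for organic ions. All groups, vector included, had been selected in puromycin at 1 µg/ml and were then grown in medium with serum and puromycin at 0.5 µg/ml. The labels call the lines stable clones and do not say whether the 3 libraries of a group came from separate clones or cultures, so the spread that the p-values rest on, that between libraries, may be technical. The sample titles end in A1, A2 and B1 in every group, with no word on what these mark, and the numbered columns of the table could not be matched to them, so a pairing by title could not be used.

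Pericellular proteolysis joins 2 protease systems. In the first, the urokinase-type activator PLAU, held at the cell surface by its receptor PLAUR, or the tissue-type activator PLAT cleaves plasminogen to plasmin, and serpins such as SERPINE2 trap the activators. In the second, membrane-anchored metalloproteinases such as MMP14 and MMP15 cut matrix proteins and activate pro-MMP2, and the TIMPs bind metalloproteinases and block them. TIMP2 has a double role, because together with MMP14 it also forms the complex that presents pro-MMP2 for activation. The uPA receptor and its ligand are well known from the invasive front of pancreatic carcinomas.

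The RefSeq promoter table (GRCh38.p14) held a window for 7 of the 9 members. The 4 windows below belong to genes whose levels moved in different ways, and each is the 250 bases before a transcription start, written 5′ to 3′ on the gene's strand. Capitals mark matches to TGANTCA, the letters bound by AP-1 factors, and to GGGCGG, the GC box of SP1, each searched on both strands, so that a GC box may read CCGCCC. The PLAUR window is chr19:43670170-43670419 (minus strand), that of PLAU chr10:73910882-73911131 (plus strand, the second of 2 listed starts), that of MMP15 chr16:58025504-58025753 (plus strand) and that of TIMP1 chrX:47582186-47582435 (plus strand).
PLAUR: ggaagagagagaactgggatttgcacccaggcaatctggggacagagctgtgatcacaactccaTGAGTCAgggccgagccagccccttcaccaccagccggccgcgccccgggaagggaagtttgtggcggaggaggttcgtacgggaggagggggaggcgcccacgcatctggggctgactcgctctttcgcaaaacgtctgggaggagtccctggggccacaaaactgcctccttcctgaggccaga
PLAU: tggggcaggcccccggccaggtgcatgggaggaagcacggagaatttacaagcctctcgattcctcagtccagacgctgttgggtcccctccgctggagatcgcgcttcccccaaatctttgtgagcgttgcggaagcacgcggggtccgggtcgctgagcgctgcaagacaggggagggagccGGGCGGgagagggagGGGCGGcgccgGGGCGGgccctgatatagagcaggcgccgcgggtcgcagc
MMP15: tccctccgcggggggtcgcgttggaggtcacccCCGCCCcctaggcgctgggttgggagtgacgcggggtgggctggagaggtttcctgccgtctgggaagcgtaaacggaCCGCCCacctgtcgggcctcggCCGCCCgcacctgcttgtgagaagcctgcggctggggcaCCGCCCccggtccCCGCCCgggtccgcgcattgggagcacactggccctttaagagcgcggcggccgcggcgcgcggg
TIMP1: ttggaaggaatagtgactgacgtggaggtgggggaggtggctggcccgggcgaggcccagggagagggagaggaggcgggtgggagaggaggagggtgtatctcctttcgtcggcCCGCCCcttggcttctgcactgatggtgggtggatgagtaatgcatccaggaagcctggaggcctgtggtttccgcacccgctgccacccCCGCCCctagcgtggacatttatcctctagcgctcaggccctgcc
PLAUR, which fell in both overexpressing lines, had the AP-1 letters once, with its first base at position -186 from the start, and no GC box. PLAU, which also fell in both, had 3 GC boxes, all in the second part of the window, and no AP-1 match. MMP15 and TIMP1, which rose in SLC22A10_OE, held 5 and 2 GC boxes and no AP-1 match. Of the windows not printed, none held the AP-1 letters, and the first PLAU start had no GC box. SERPINE2, which also fell in both lines, had 1 and 2 GC boxes at its starts. MMP14, which passed in neither line, had 1, and TIMP3, not analysed, had 5. Over all 35116 windows of this length in the table, 6.57% held the AP-1 letters and 42.6% the GC box, so that the match in PLAUR is the rarer of the 2. The TEAD letters GGAATG, present in 11.9% of all windows, were in none of the 9 windows of these genes. Such matches are letters in a window and say nothing of binding.

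Library totals were 28.4 to 42.9 M reads, and the reads behind a value ran from 20 (SERPINE2, SLC22A10_OE) to 25453 (TIMP2, SLC22A10_OE). SLC22A10 stood at 80.5 to 91.4 CPM in its own line, with 1 read over the vector libraries and 0 reads in SLC22A15_OE, and SLC22A15 stood at 73.3 to 78.3 CPM in its own line against 5.46 to 6.52 in vector. In each group 1 library, vector 1, SLC22A10_OE 3 and SLC22A15_OE 1, had less mitochondrial ribosomal RNA than the other 2 (0.00958% to 0.0151% of reads against 0.0454% to 0.0843%). All member calls below were also made without those 3 libraries. Of 9 ductal epithelial markers, KRT8, KRT18, KRT19 and SOX9 passed the filter, while EPCAM, CDH1 and CFTR matched no row and are not analysed here. The summed ductal markers were 436 to 475 CPM in vector, 533 to 593 in SLC22A10_OE and 287 to 321 in SLC22A15_OE. Single markers moved in opposite directions in SLC22A10_OE, where KRT19 rose from 73.2 ± 7.65 to 216 ± 16.8 CPM (SD, n = 3) and KRT18 fell from 162 ± 1.47 to 99.2 ± 3.23. Of markers of other cell types, 2 of 6 fibroblast and stellate genes matched (COL1A1 and ACTA2, summed 1.74 to 2.04 CPM in vector, 5.63 to 7.05 in SLC22A10_OE and 1.12 to 1.40 in SLC22A15_OE). The only matched endothelial marker of 4, CDH5, was at 0.901 to 1.45, 6.24 to 7.65 and 2.52 to 2.86 CPM in the same order. The 2 matched leukocyte genes of 6, CD68 and ITGAM, summed to 16.6 to 20.3, 25.4 to 26.6 and 21.1 to 21.8 CPM. Of 6 acinar genes only CEL matched (4.59 to 5.06, 2.89 to 3.95 and 4.29 to 5.21 CPM) and of 5 islet genes only CHGA, at 1.06 CPM or less. The part of these markers in the results below was not tested, and in bulk RNA fewer cells of a type and less RNA per cell cannot be told apart.

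Against vector, SLC22A10_OE had less mRNA of both activators, of the receptor and of SERPINE2, and more of MMP15, TIMP1 and TIMP2. SLC22A15_OE had less PLAU, PLAUR and SERPINE2 and more TIMP2, while PLAT, MMP14, MMP15 and TIMP1 did not pass the test there. Of the 8 members, 3 rose and 4 fell in SLC22A10_OE, where 67.2% of all genes tested were called (34.7% higher and 32.5% lower), and a share of 7 in 8 is therefore read against a high background. In SLC22A15_OE 1 member rose and 3 fell, where 20.4% of genes were called (10.8% higher and 9.58% lower). The tests here and below are limma on log2(CPM + 1) with Benjamini-Hochberg adjustment over all 14554 genes and a threshold of 0.05, and each fold change in log2 is on that scale, which understates changes of genes near 1 CPM. The median change of the members was -0.11 in SLC22A10_OE and -0.084 in SLC22A15_OE, beside 0.0046 and 0.0056 over all genes tested. Both comparisons use the same vector libraries.

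**Figure D1:**
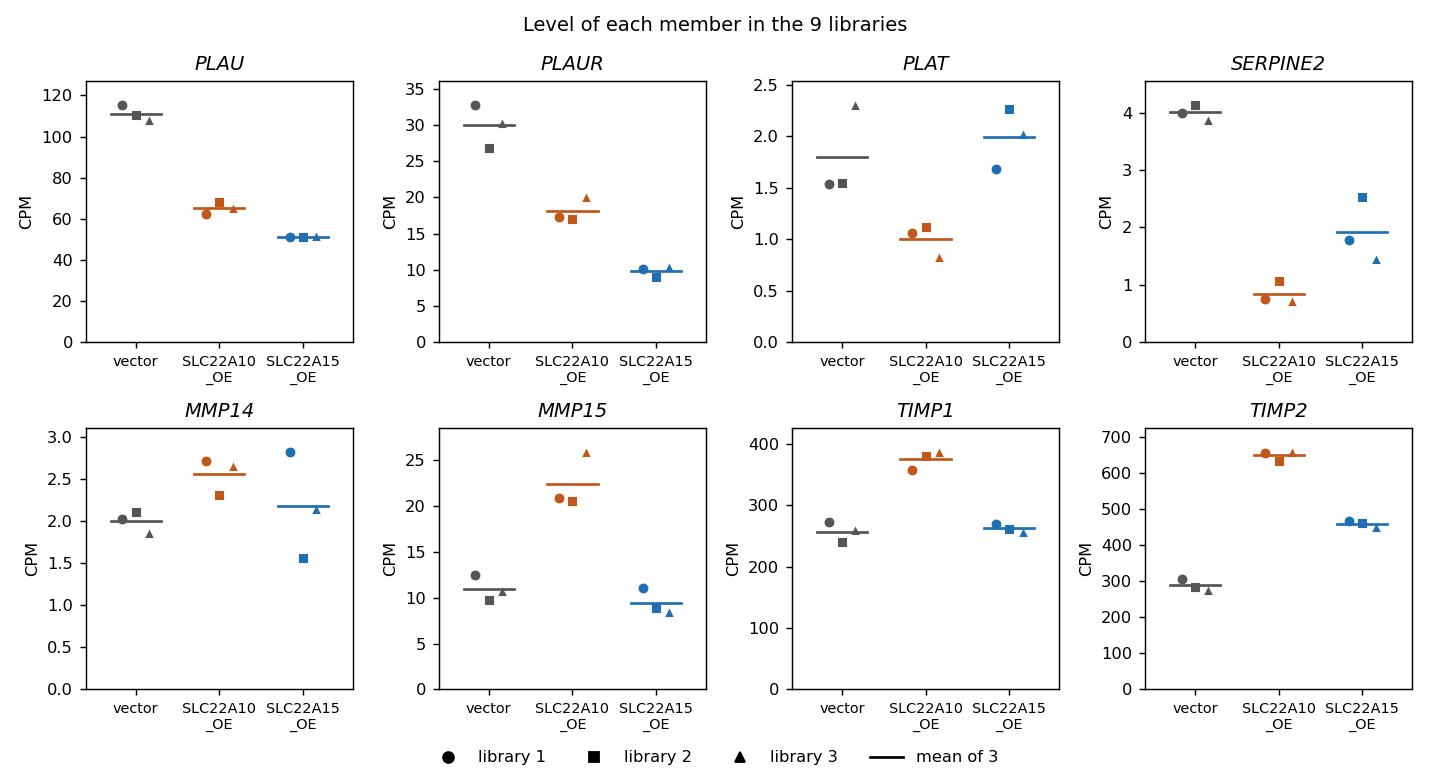
Level of each matched member in CPM (vertical axes, each from 0) in the 9 libraries by group; symbols are libraries 1 to 3 and the lines are means of 3. PLAU and PLAUR step down from vector over SLC22A10_OE to SLC22A15_OE, while TIMP2 is highest in SLC22A10_OE at 634 to 660 CPM.

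PLAU (Entrez 5328, chr10:73909177-73917497, plus strand, GENCODE 29 on GRCh38) encodes urokinase. It stood at 115, 110 and 108 CPM in vector libraries 1 to 3, at 62.2, 68.4 and 65.2 in SLC22A10_OE, and at 50.9, 51.2 and 51.4 in SLC22A15_OE. No groups overlapped, and the 3 SLC22A15_OE libraries lay within 1 CPM of each other. The mean of 65.3 ± 3.10 CPM (SD, n = 3) in SLC22A10_OE was 58.7% of the 111 ± 3.89 in vector, a log2 change of -0.76 (SE 0.052, limma adjusted p = 4.85e-08). In SLC22A15_OE the mean of 51.2 ± 0.240 was 46.0% of vector, a change of -1.10 (SE 0.052, limma adjusted p = 1.24e-08). The difference between the lines was also past the threshold, with SLC22A15_OE lower by -0.34 (limma adjusted p = 7.97e-05).

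PLAUR (Entrez 5329, chr19:43646095-43670547, minus strand) encodes the GPI-anchored receptor of urokinase, and it followed the same order with a larger fall in SLC22A15_OE. Vector libraries held 32.8, 26.9 and 30.2 CPM, SLC22A10_OE libraries 17.4, 17.0 and 20.04, and SLC22A15_OE libraries 10.2, 8.97 and 10.4. Every library of one group was separate from those of the others. The level in SLC22A10_OE was 60.6% of vector (-0.69, SE 0.093, limma adjusted p = 2.47e-05), and in SLC22A15_OE it was 32.9% (-1.51, SE 0.093, limma adjusted p = 1.46e-07). Between the lines PLAUR differed by -0.82 (limma adjusted p = 7.45e-06).

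PLAT (Entrez 5327, chr8:42175233-42207724, minus strand) encodes the tissue-type activator, and was thinly covered, with 50, 55 and 87 reads in the vector libraries. In vector its level was 1.54, 1.55 and 2.31 CPM. SLC22A10_OE libraries held 1.06, 1.12 and 0.827 CPM, all below vector, and SLC22A15_OE libraries 1.68, 2.26 and 2.03, within the vector range. PLAT fell in SLC22A10_OE to 55.7% of vector (-0.47, SE 0.13, limma adjusted p = 0.00666). In SLC22A15_OE the change was 0.10 (95% interval -0.19 to 0.39, limma adjusted p = 0.651). The lines differed by 0.58, with SLC22A15_OE higher (limma adjusted p = 0.00210). With edgeR on recovered reads, which adds no CPM of 1, the change in SLC22A10_OE was -0.84 and the difference of the lines 0.99.

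SERPINE2 (Entrez 5270, chr2:223975112-224039319, minus strand) encodes protease nexin 1, a serpin that inhibits thrombin and both plasminogen activators. It was at 3.999, 4.13 and 3.87 CPM in vector, 0.749, 1.06 and 0.720 in SLC22A10_OE and 1.78, 2.52 and 1.45 in SLC22A15_OE. The 3 groups did not overlap, and here SLC22A10_OE, not SLC22A15_OE, was lowest. The 20 to 37 reads of SLC22A10_OE stood against 130 to 147 in vector, 21.1% of the vector CPM (-1.45, SE 0.14, limma adjusted p = 9.56e-07). In SLC22A15_OE it was 47.9% of vector (-0.79, SE 0.14, limma adjusted p = 9.36e-04). The lines differed by 0.65 (limma adjusted p = 0.00105). By edgeR on recovered reads the fall in SLC22A10_OE was -2.24 and the difference of the lines 1.17.

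The membrane-type metalloproteinases did not move together. MMP14 (Entrez 4323, chr14:22836557-22849027, plus strand), also known as MT1-MMP, stood at 2.03, 2.11 and 1.86 CPM in vector, 2.71, 2.32 and 2.66 in SLC22A10_OE, and 2.83, 1.56 and 2.14 in SLC22A15_OE. SLC22A10_OE libraries lay above vector and the SLC22A15_OE libraries spread around it. Neither change passed: 0.25 in SLC22A10_OE (95% interval -0.047 to 0.54, limma adjusted p = 0.123) and 0.064 in SLC22A15_OE (95% interval -0.23 to 0.36, limma adjusted p = 0.797). The level of MMP14 rested on 60 to 105 reads a library. The lines differed by -0.18 (limma adjusted p = 0.256), which became -0.33 without SLC22A15_OE library 1 (limma adjusted p = 0.0426) and -0.038 without SLC22A15_OE library 2 (limma adjusted p = 0.817).

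MMP15 (Entrez 4324, chr16:58025566-58046901, plus strand), or MT2-MMP, is anchored like MMP14 by a transmembrane segment. Vector libraries held 12.46, 9.73 and 10.8 CPM, SLC22A10_OE libraries 20.9, 20.6 and 25.9, and SLC22A15_OE libraries 11.02, 8.87 and 8.48. Only SLC22A10_OE stood apart, at 2.04 times vector (0.97, SE 0.12, limma adjusted p = 1.12e-05). SLC22A15_OE overlapped vector (-0.20, 95% interval -0.46 to 0.058, limma adjusted p = 0.277), and with a term for the 3 libraries low in mitochondrial ribosomal RNA the same change passed (limma adjusted p = 0.0314). The lines differed by -1.17 (limma adjusted p = 2.91e-06).

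The 2 tissue inhibitors were the members with the highest levels, and both rose in SLC22A10_OE. TIMP1 (Entrez 7076, chrX:47582313-47586789, plus strand), a secreted inhibitor of most metalloproteinases but a weak one of the membrane types, was at 273, 240 and 260 CPM in vector, 358, 380 and 387 in SLC22A10_OE, and 270, 262 and 257 in SLC22A15_OE. SLC22A10_OE was 1.46 times vector (0.54, SE 0.052, limma adjusted p = 1.23e-06), and no library of it overlapped the other groups. SLC22A15_OE lay inside the vector range, with a change of 0.033 and a 95% interval of -0.080 to 0.15 (limma adjusted p = 0.722). The lines differed by -0.51 (limma adjusted p = 3.08e-06).

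TIMP2 (Entrez 7077, chr17:78852977-78925387, minus strand), which inhibits the membrane types and partners MMP14, was at 308, 284 and 276 CPM in vector, 658, 634 and 660 in SLC22A10_OE, and 467, 461 and 451 in SLC22A15_OE. All 3 groups were separate. The level was 2.25 times vector in SLC22A10_OE (1.17, SE 0.046, limma adjusted p = 3.74e-10) and 1.59 times in SLC22A15_OE (0.67, SE 0.046, limma adjusted p = 4.21e-07). SLC22A15_OE was below SLC22A10_OE by -0.50 (limma adjusted p = 1.18e-06).

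**Figure D2:**
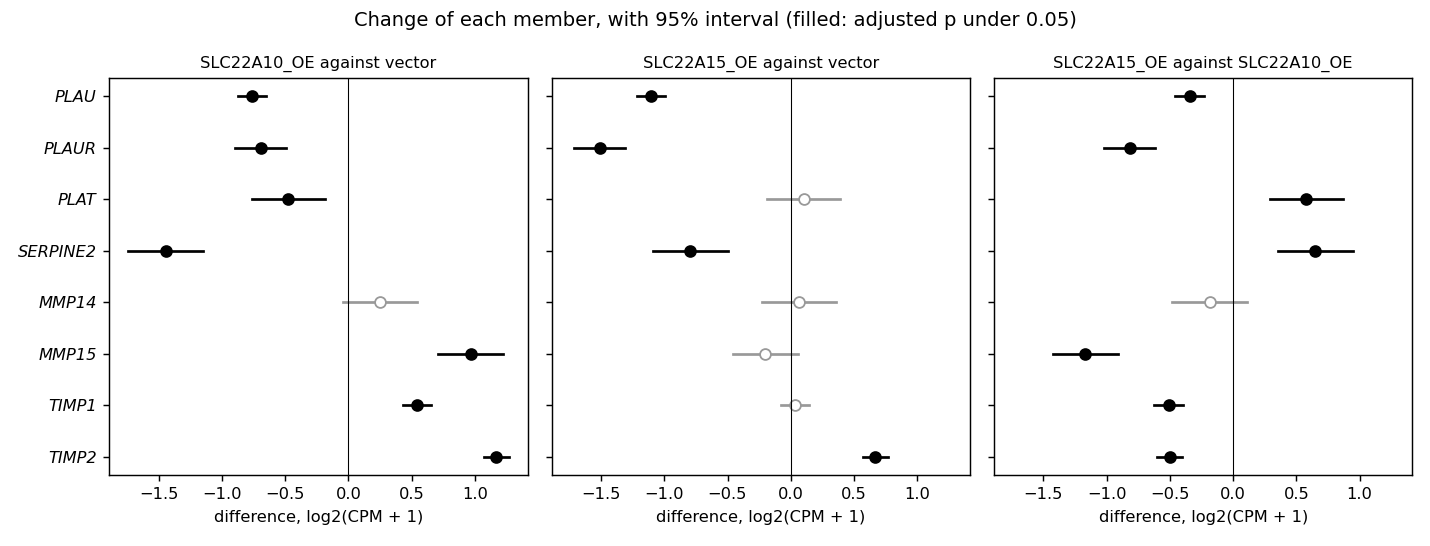
Difference of each member in log2(CPM + 1) (horizontal axes) for the 3 comparisons, with 95% intervals from limma; filled black points passed an adjusted p of 0.05 and open grey ones did not. Only PLAU, PLAUR, SERPINE2 and TIMP2 are filled in both comparisons with vector.

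Tested directly, the lines differed in 7 of the 8 members, all except MMP14, where 62.9% of all genes differed. PLAT and SERPINE2 were higher in SLC22A15_OE than in SLC22A10_OE (2 members, where 30.8% of genes were higher) and PLAU, PLAUR, MMP15, TIMP1 and TIMP2 lower (5 members, where 32.1% of genes were lower). The members' median difference was -0.42, beside -0.0021 over all genes tested. This contrast shares its libraries with the 2 comparisons with vector. In the authors' deposited tables, the same 7 members in SLC22A10_OE and the same 4 in SLC22A15_OE had an FDR under 0.05, with a logFC of -1.12 for PLAU, -1.60 for PLAUR, -1.06 for SERPINE2 and 0.67 for TIMP2 in SLC22A15_OE. Those values come from the same series of libraries and are no separate result. The share of all genes under that FDR was not counted here.

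Per kb of exon (the union of a gene's exons in GENCODE 29), which allows genes to be set against each other, TIMP1 and TIMP2 were above the proteases in every group. In vector the order was TIMP1 (167 ± 10.8 CPM per kb, SD, n = 3), TIMP2 (51.3 ± 2.91), PLAU (37.7 ± 1.32), PLAUR (6.72 ± 0.667), MMP15 (2.49 ± 0.311), then SERPINE2 (0.450 ± 0.0149) and MMP14 (0.448 ± 0.0291), which did not differ beyond their spread, and PLAT (0.272 ± 0.0666). In SLC22A10_OE, MMP15 (5.09 ± 0.680) stood above PLAUR (4.07 ± 0.370), with no overlap between their libraries, and SERPINE2 (0.0948 ± 0.0211) was the lowest, below PLAT (0.151 ± 0.0231). In SLC22A15_OE, PLAUR (2.21 ± 0.175) and MMP15 (2.14 ± 0.310) overlapped, as did PLAT (0.301 ± 0.0440) and SERPINE2 (0.216 ± 0.0617). TIMP1, TIMP2 and PLAU kept the first 3 places in each group.

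**Figure D3:**
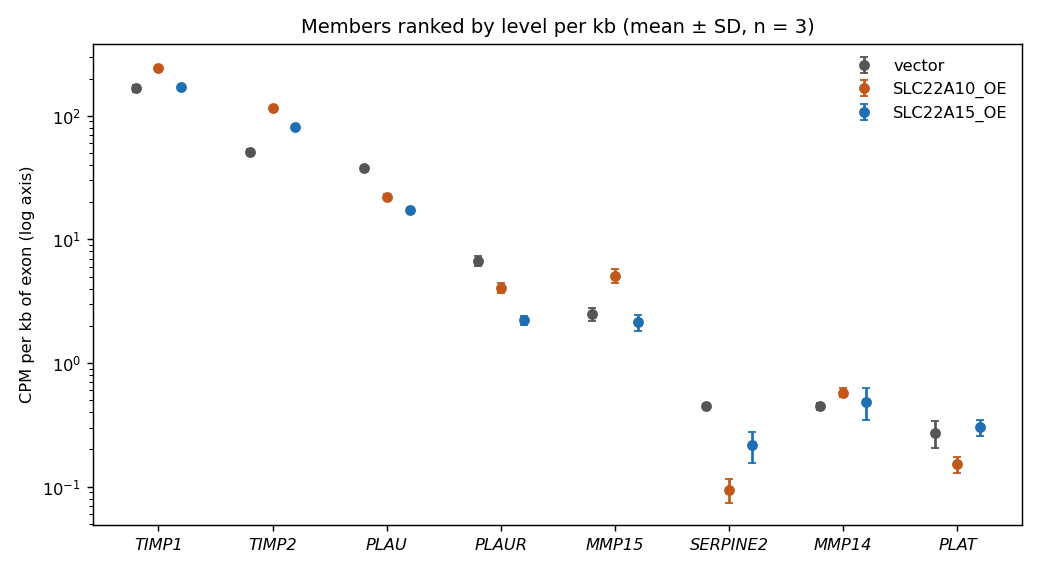
Mean level of each member in CPM per kb of exon (log axis) by group, in the order of vector, with SD bars over 3 libraries. Levels run from TIMP1 at 167 in vector down to SERPINE2 at 0.0948 in SLC22A10_OE, and MMP15 and PLAUR change places in SLC22A10_OE.

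Ratios of CPM within a library, given as values with no test because they are built from the members, set partners against each other. A ratio can move through a single partner. MMP14 passed the test against vector in neither line, and PLAT and TIMP1 did not pass it in SLC22A15_OE. PLAU to its receptor PLAUR was 3.73 ± 0.324 (SD, n = 3) in vector and 3.62 ± 0.381 in SLC22A10_OE, whose ranges overlapped, and 5.22 ± 0.428 in SLC22A15_OE, whose lowest library (4.93) was above the highest of the other 2 groups (4.10). PLAU to its inhibitor SERPINE2 was 27.8 ± 1.10 in vector, 79.4 ± 13.4 in SLC22A10_OE and 28.1 ± 7.58 in SLC22A15_OE, with only SLC22A10_OE apart. PLAT to SERPINE2 was 0.452 ± 0.125 in vector and higher in every library of SLC22A10_OE (1.21 ± 0.186) and SLC22A15_OE (1.08 ± 0.275). MMP14 to TIMP2 was 0.692% ± 0.0446 in vector, 0.394% ± 0.0248 in SLC22A10_OE and 0.473% ± 0.134 in SLC22A15_OE, all libraries of both lines being below vector. TIMP1 to TIMP2 went from 0.890 ± 0.0481 in vector to 0.577 ± 0.0291 in SLC22A10_OE and 0.572 ± 0.00560 in SLC22A15_OE, and the ranges of the 2 lines overlapped.

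**Figure D4:**
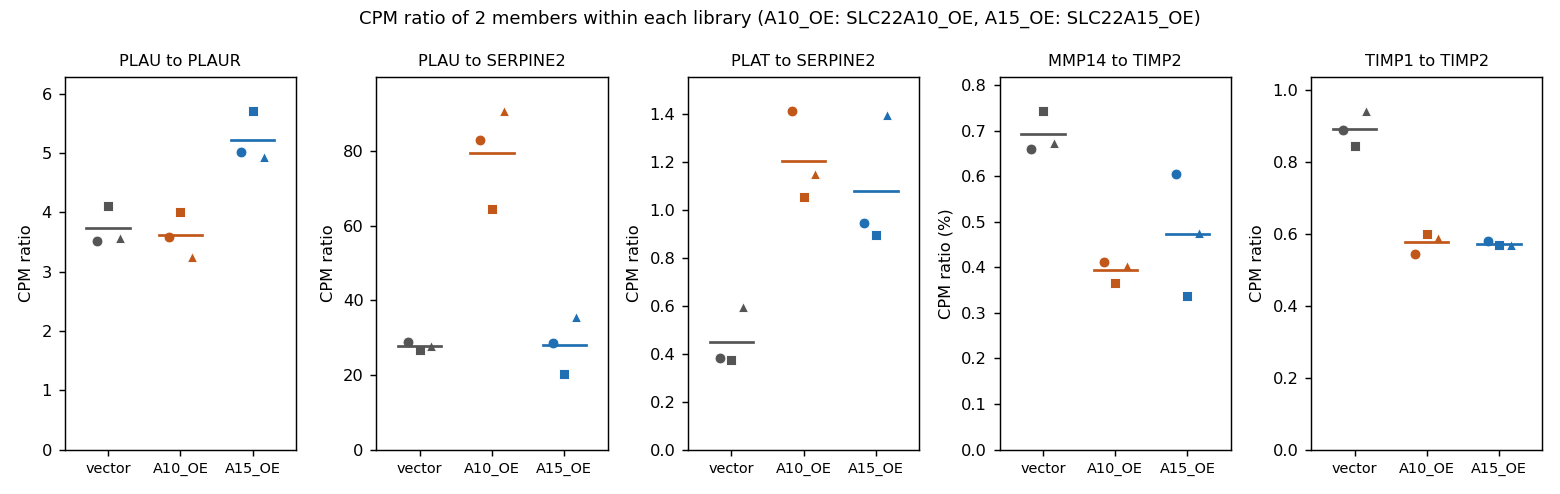
CPM ratio of 2 members within each library (vertical axes from 0, MMP14 to TIMP2 in percent), by group; symbols are libraries 1 to 3 as in the plot of levels and lines are means. PLAU to SERPINE2 is apart only in SLC22A10_OE (64.6 to 90.7), and TIMP1 to TIMP2 is lower in both lines.

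Among the other genes of these systems, 48 of 5 lists were tested. In SLC22A10_OE 26 rose, 16 fell and 6 did not pass, beside the 34.7% and 32.5% of all genes given above. With each library centred on its median log value, 21 rose and 19 fell. Under that centring 3875 of all 14554 genes were higher and 6233 lower. Of 11 plasminogen system genes, 3 rose and 7 fell there, with a median change of -0.44. ANXA2, which with S100A10 forms a plasminogen receptor, fell from 416 ± 5.72 to 208 ± 7.68 CPM (SD, n = 3, -0.997). LRP1, the endocytic receptor that clears complexes of activator and serpin, rose from 33.9 ± 3.90 to 141 ± 9.06 (2.03), and MRC2, a collagen receptor that binds the urokinase receptor, from 51.2 ± 5.51 to 151 ± 12.7 (1.55).

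Of the 6 other metalloproteinases tested, 3 rose and 2 fell in SLC22A10_OE (median 0.28), beside 34.7% and 32.5% of all genes. MMP11, or stromelysin 3, rose from 2.92 ± 0.574 to 16.9 ± 2.88 CPM (2.19) and the GPI-anchored MMP17 from 2.89 ± 0.442 to 6.11 ± 0.504 (0.87). MMP9 was below the filter at means of 0.116, 0.484 and 0.210 CPM in vector, SLC22A10_OE and SLC22A15_OE, as was TIMP4 at 0.345, 0.236 and 0.258, and MMP1 and MMP2 matched no row and are not analysed here. Of 10 genes that activate, hold or restrain metalloproteinases, 4 rose and 5 fell (median -0.10). FURIN, the convertase that matures MMP14 and MMP15, rose from 42.3 ± 4.54 to 67.2 ± 4.37 CPM (0.66) and CD63, a tetraspanin that binds TIMP1, from 80.2 ± 3.51 to 105 ± 5.15 (0.39). CAV1, the caveolin of the caveolae through which MMP14 is taken up, fell from 77.9 ± 1.27 to 14.5 ± 1.10 (-2.35), and CLDN1, a tight junction protein, from 119 ± 2.19 to 30.9 ± 0.856 (-1.91).

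In the ADAM and ADAMTS list 8 of 11 genes rose in SLC22A10_OE and 1 fell (median 0.33). In the list of other pericellular proteases and inhibitors 8 of 10 rose and 1 fell (median 0.59). Over all genes tested 34.7% were higher and 32.5% lower. The counts with centred libraries were made for the 48 genes together, not by list. The 8 of the second list were the proteases TMPRSS2, CTSB, CTSD and CTSV, the protease inhibitors SPINT2, CST3 and SERPINB6, and SERPINH1, a collagen chaperone of the serpin family. ADAMTS10 rose from 3.24 ± 0.497 to 14.5 ± 0.707 CPM (1.87), ADAMTS7 from 12.9 ± 3.03 to 34.2 ± 3.87 (1.36) and ADAMTS13 from 8.32 ± 1.22 to 17.1 ± 1.54 (0.96), while ADAMTS16 fell from 7.00 ± 0.640 to 2.73 ± 0.644 (-1.11). SPINT2, a Kunitz inhibitor of membrane serine proteases, rose from 0.640 ± 0.288 to 7.46 ± 0.669 CPM (2.38). The lysosomal proteases CTSB and CTSV rose by 1.15 and 0.91 on the log2 scale, CTSB from 170 ± 8.997 to 379 ± 16.5 CPM, and their inhibitor CST3 by 0.64. By limma each gene given here as risen or fallen in SLC22A10_OE had an adjusted p under the threshold and groups that did not overlap. Those given with their changes were chosen by that rule, so it is no separate result about them.

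In SLC22A15_OE, 5 of the 48 genes rose, 13 fell and 30 did not pass, beside 10.8% and 9.58% of all genes. The 5 became 9 without vector library 1 and 3 without vector library 2, and the 13 became 6 without vector library 3, 8 without SLC22A15_OE library 2 and 7 without SLC22A15_OE library 3. The 5 also became 12 with a term for the 3 libraries low in mitochondrial ribosomal RNA and 11 without those libraries. Calls over all genes moved too. The 1572 higher became 1922 without vector library 1, 1244 without vector library 2, 2868 with the term and 2337 without those 3 libraries. The 1394 lower became 940 without vector library 3, 1036 without SLC22A15_OE library 2 and 1028 without SLC22A15_OE library 3. Of the 11 plasminogen system genes, 6 fell and 0 rose. ANXA2 fell to 308 ± 3.07 CPM (-0.43). S100A10 fell from 216 ± 15.1 to 179 ± 13.8 (-0.27, limma adjusted p = 0.0556 without vector library 3). VLDLR, another receptor that takes up urokinase complexes, fell from 9.48 ± 0.365 to 7.79 ± 0.576 CPM (-0.26, limma adjusted p = 0.0481), a call lost on leaving out any single library except SLC22A15_OE 1 (limma adjusted p of 0.0513 to 0.164).

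CAV1 (34.2 ± 1.09 CPM, -1.16) and CLDN1 (53.0 ± 1.57 CPM, -1.15) fell in SLC22A15_OE as well. Of the 10 genes of their list 3 fell and 1 rose, beside 9.58% lower and 10.8% higher of all genes. MMP24 had the change 0.094 (8.22 ± 0.319 against 7.65 ± 0.580 CPM, limma adjusted p = 0.533). MMP11 was the 1 metalloproteinase of 6 that passed, at 4.68 ± 0.634 CPM (0.54), and its limma adjusted p was 0.0626 without vector library 2 and 0.0662 without SLC22A15_OE library 2. In the ADAM and ADAMTS list 1 gene rose and 3 fell of 11. ADAMTS16 fell to 4.54 ± 0.763 CPM (-0.54), with a limma adjusted p of 0.0769 without SLC22A15_OE library 3. ADAM17, the sheddase of TNF and of EGF receptor ligands, fell from 87.7 ± 2.76 to 75.9 ± 3.02 CPM (-0.21), a call lost without vector 2, vector 3, SLC22A15_OE 1 or SLC22A15_OE 2 (limma adjusted p of 0.0527 to 0.0645). Of the 10 other pericellular genes 2 rose, among them CTSB at 221 ± 7.56 CPM (0.38), and 1, CTSL, fell from 99.6 ± 7.04 to 85.2 ± 3.73 CPM (-0.22). The CTSL call (limma adjusted p = 0.0462) was lost without vector 2, vector 3, SLC22A10_OE 1 or any one SLC22A15_OE library (limma adjusted p of 0.0621 to 0.198).

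**Figure D5:**
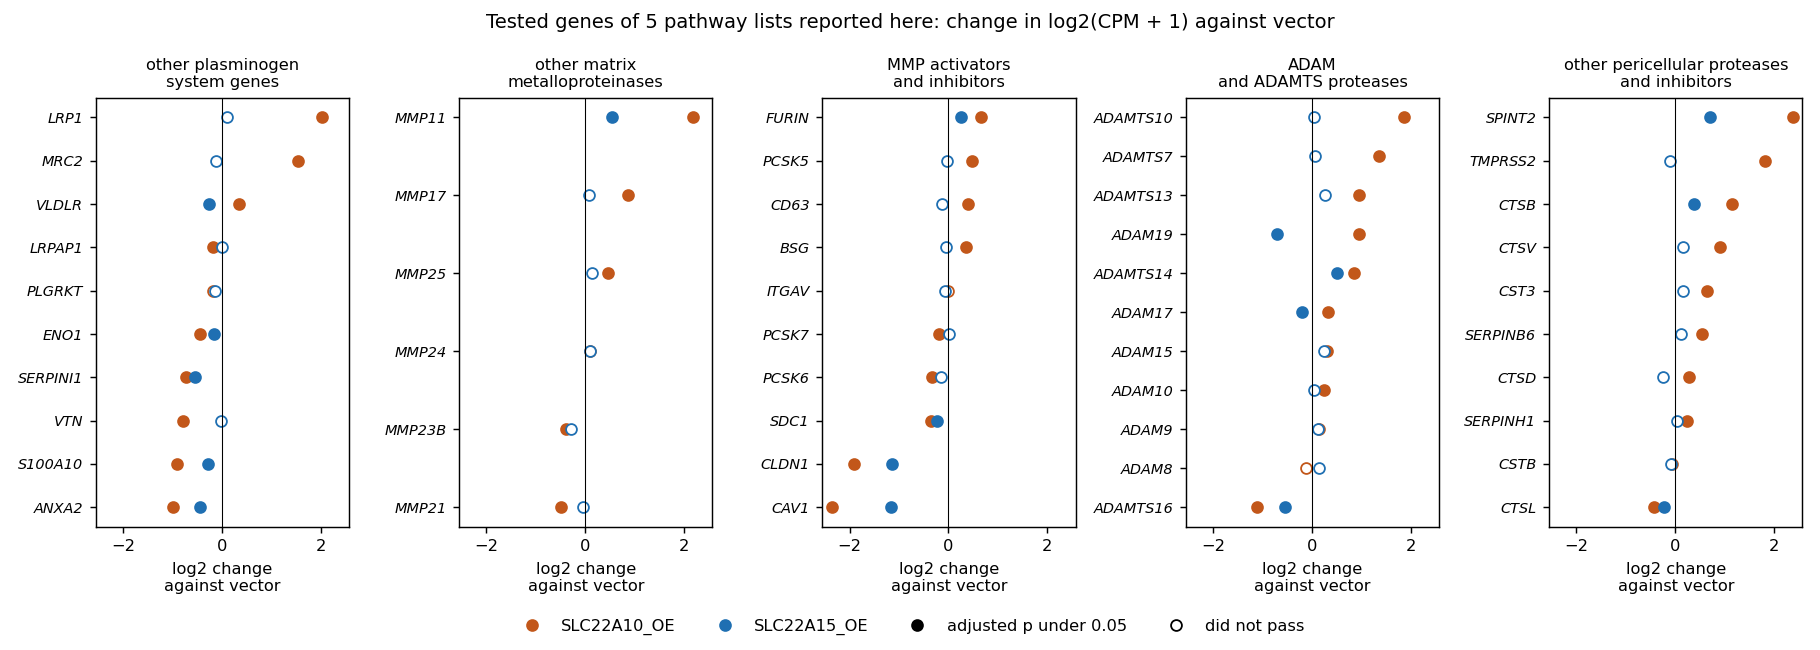
Change in log2(CPM + 1) against vector (horizontal axes) of the tested genes of 5 lists that are reported here, in SLC22A10_OE and SLC22A15_OE; filled points passed a limma adjusted p of 0.05. LRP1, MMP11 and SPINT2 lie past 2 in SLC22A10_OE, and CAV1 and CLDN1 are lowest in their list in both lines.

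Compared directly, 14 of the 48 genes were higher and 24 lower in SLC22A15_OE than in SLC22A10_OE (30.8% and 32.1% of all genes). LRP1 (-1.92), MRC2 (-1.67), MMP11 (-1.65), MMP17 (-0.80), ADAMTS10 (-1.82), ADAM19 (-1.65), SPINT2 (-1.67) and CTSB (-0.77) were lower in SLC22A15_OE. CAV1 (1.19), CLDN1 (0.76) and S100A10 (0.64) were higher there.

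The genes whose pattern was most like that of a member were found for the 5 members whose group means span at least 1. The measure was the root mean square difference of log2(CPM + 1), each gene centred on its mean, over the 9 libraries and 14553 genes. Genes with no symbol, or with a placeholder, antisense, long intergenic noncoding or clone symbol, were passed over in naming the nearest. For PLAU they were SYTL4 (0.0781), LARP6 (0.0847) and CAMK2N1 (0.0908), LARP6 at means of 47.5, 25.9 and 22.4 CPM in vector, SLC22A10_OE and SLC22A15_OE. PLAUR was most like TPD52L1 (0.116), COL1A2 (0.186) and NRIP1 (0.188), and TPD52L1 went from 24.9 over 14.4 to 8.35 CPM. COL1A2 was low, at 2.94, 1.09 and 0.0961 CPM in the same order, where the log2(CPM + 1) scale understates changes. SERPINE2 was nearest to ETS1 (0.145), ITPRIP (0.147) and TRIM59 (0.149), the transcription factor ETS1 standing at 94.4, 30.9 and 52.0 CPM. MMP15 had FZD2 (0.0696), FGFR4 (0.0750) and ETNK2 (0.0895) as its nearest, the Wnt receptor FZD2 at 15.7, 30.0 and 12.6 CPM. Closest to TIMP2 were PDIA4 (0.0580), COQ8A (0.0627) and GNG4 (0.0658), with PDIA4, a protein disulfide isomerase of the endoplasmic reticulum, at 187, 400 and 284 CPM.

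Neighbouring genes were compared by the size of their change, in either direction. Within 1 Mb of PLAU, 24 tested genes had a median change of -0.0062 in SLC22A10_OE and 0.0057 in SLC22A15_OE, and 0 of them changed as much as PLAU in either. The 35 neighbours of PLAUR had medians of 0.25 and -0.037, with 7 as large in SLC22A10_OE and 0 in SLC22A15_OE. TIMP2 had 20 neighbours, with medians of -0.020 and -0.013 and with 2 and 1 as large. MMP15 had 26 in SLC22A10_OE, median -0.076, with 3 as large, and TIMP1 had 25, median 0.10, with 3 as large. SERPINE2 had only 5, with medians of -0.38 and -0.11 and 1 as large in each line. For PLAT there were 17, with medians of 0.14 and 0.24 and with 3 and 15 as large. For MMP14 there were 26, with medians of 0.15 and 0.023 and with 15 and 17 as large.

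Some members share their place with other genes in GENCODE 29, and the sources used here do not say whether counting used strand. PLAU overlaps exons of C10orf55 on the opposite strand, which was at 2.92, 2.46 and 1.91 CPM in vector, SLC22A10_OE and SLC22A15_OE. TIMP2 overlaps exons of CEP295NL on its own strand, at 7.07, 3.96 and 9.86 CPM. TIMP1 lies within SYN1 on the opposite strand without overlap of exons, at 1.52, 2.98 and 2.42 CPM. The part of these overlaps in the member levels was not tested.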

How the data were processed

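RNA of 3 libraries per group was depleted of ribosomal RNA and made into strand-specific libraries, per the labels' protocols. The authors deposited CPM per gene and library, with Entrez numbers, and, for either line against vector, a table of log2 values (logFC and mean CPM), p-values and FDR. The deposited tables also hold a column that, by its values, is the −log10 of the FDR, and, per the file headers, 2 score columns, the F statistic and the size of the logFC. The submitters' processing notes name edgeR and the builds hg38 and mm9, with no role. The sources used here name no aligner, counter or annotation. Of the genes, 187 had no symbol and 0 columns were unused. Whole reads were recovered from the CPM (100% of values within 0.1 read).

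The main test was limma (3.58.1, R 4.3.3) on log2(CPM + 1) with a mean trend, all 9 libraries in 1 fit, no covariate, 3 contrasts, 3 or more libraries with a CPM of 1 or above required, two-sided, with Benjamini-Hochberg adjustment over all genes tested. Alternatives were edgeR (4.0.16) and DESeq2 (1.42.0) on recovered reads, other pseudocounts and filters, centring, and leaving out libraries. A gene at 1 CPM held 27.8 to 43.4 reads, a counting SD of 15.2% to 19.0%. The procedure was tested on simulated data in which few genes changed, unlike SLC22A10_OE, where 67.2% of genes were called. Columns carry a group and a number, and libraries are named by them. Members and lists were chosen with earlier results of these data known. Named from each list were up to 4 genes per comparison with the largest change among those past the threshold, with groups that do not overlap and a mean of at least 5 CPM in the higher group, or where no gene passed these the 2 with the highest mean CPM, and MMP1, MMP2, MMP9 and TIMP4 in any case. Some genes of the rule and of the lists are counted but not reported here by name.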

Additional observations from a re-analysis of the deposited data

How the results depend on the processing

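Each of the 18 member changes that passed kept its direction and its call under the 19 alternatives (337 values, largest adjusted p 0.0389), except that PLAT, SERPINE2 and MMP14 were not tested at a filter of 5 CPM. At that filter the members lower in SLC22A10_OE were 2 in place of 4, and those higher in SLC22A15_OE than in SLC22A10_OE 0 in place of 2. Of 110 values of the 6 changes that did not pass, 2 passed, both given above, and 3 changed sign in SLC22A15_OE: MMP14 was -0.080 without SLC22A15_OE library 1 and -0.071 without the 3 libraries low in mitochondrial ribosomal RNA, an alternative chosen after the data were seen, and TIMP1 was -0.017 without vector library 2. On leaving out single libraries MMP14 ran from -0.080 to 0.21 and TIMP1 from -0.017 to 0.076. The list genes higher in SLC22A15_OE (5) were 12 with a term for those libraries and 11 without them, and 3 to 9 on leaving out single libraries, where the list genes lower (13) were 6 to 13. The cause was not tested. All genes called in SLC22A15_OE were 2966, 5608 with the term, 4494 without those libraries and 2074 to 3526 on leaving out single libraries.

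With libraries centred on their medians, the median of all genes became -0.12 in SLC22A10_OE and 5047 higher and 4728 lower became 3875 and 6233, and between the lines 4484 and 4674 became 5798 and 3713. Member calls and directions were the same under centring. The titles share A1, A2 and B1 over the groups but could not be matched to columns, so pairing was checked by column number alone: same-numbered libraries had correlations of deviations from -0.41 to 0.57, over 0.1 in 5 of 9 pairs, and the 3 libraries low in mitochondrial ribosomal RNA, 1 a group, from 0.48 to 0.57. A replicate block by column number left 1 member higher and 3 lower in SLC22A15_OE and ended the calls of VLDLR (adjusted p = 0.0685) and CTSL (0.0521) there. Depth limits PLAT, SERPINE2 and MMP14, at 20 to 147 reads a library.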
